A study of Mus musculus with 2 samples.

Results

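The Mir181 family is a set of 6 mouse miRNA genes that lie in 3 clusters of neighbours, on chromosomes 1, 2 and 8. The 6 genes were taken by their Ensembl gene identifiers, version ignored, out of 1973 miRNA genes in the deposited tables, and all 6 were found. Each had at least 10 reads in both libraries, the level at which a gene was counted as detected, as did 333 of the 1973 genes. The tissue came from healthy mice of strain B6NCrl at embryonic day 15.5, males and females mixed, and was the embryonic facial prominence, from which face and jaws develop. Small RNA was sequenced in 1 group of 2 biological replicates, for which the labels name no treatment or altered allele. Replicate 2 pooled 62 embryos and replicate 1 pooled 78. Each value therefore stands for a pool of many animals and not for 1 embryo, and with a single group only the libraries can be set against each other.

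A miRNA gene is transcribed into a hairpin, which is cut to release a short duplex of a 5p and a 3p arm. One arm is loaded into the silencing complex and finds its targets mainly through its seed, bases 2 to 8. The miR-181 family is known above all from lymphocytes, where miR-181a tunes the sensitivity of developing T cells to antigen. It has also been described in the vessel wall, in differentiating skeletal muscle and in neurons. The 5p arms of the family are regarded as its main products.

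All 6 hairpins carry 5p arms with 1 seed, ACAUUCA, and no other mature miRNA in the RefSeq table (build GRCm38.p6) had it. The family gives 4 different 5p arms, printed 5′ to 3′ with the seed in capitals because they show which genes can be told apart in the counts.
miR-181a-5p: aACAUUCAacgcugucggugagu
miR-181b-5p: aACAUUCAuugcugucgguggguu
miR-181c-5p: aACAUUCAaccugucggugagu
miR-181d-5p: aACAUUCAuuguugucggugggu
The miR-181a-5p arm is made from Mir181a-1 (chr1:137966468-137966490, plus strand) and from Mir181a-2 (chr2:38852741-38852763, plus strand). The miR-181b-5p arm is made from Mir181b-1 (chr1:137966650-137966673, plus strand) and from Mir181b-2 (chr2:38853845-38853868, plus strand). The other two 5p arms each come from 1 gene on the minus strand of chromosome 8, Mir181c (chr8:84178924-84178945) and Mir181d (chr8:84178759-84178781). Against miR-181b-5p, miR-181d-5p has the substitution C12U, counted from the 5′ end, and is 1 base shorter. Against miR-181a-5p, miR-181c-5p is 1 base shorter and differs by that deletion alone. These coordinates are on GRCm38, the build that the deposited files call mm10.

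Reads that mapped to several places were kept in a separate line of the deposited tables and were given to no gene. Among the 2202 miRNA hairpins of GENCODE M21, miR-181a-5p occurred without mismatch in Mir181a-1 and Mir181a-2, and miR-181b-5p in Mir181b-1 and Mir181b-2. The RefSeq hairpins of the 4 genes show how far the sharing reaches, with the stretch around the 5p arm that is identical between the copies in capitals.
Mir181a-1: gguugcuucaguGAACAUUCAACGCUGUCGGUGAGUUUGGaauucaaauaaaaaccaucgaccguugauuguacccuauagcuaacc
Mir181a-2: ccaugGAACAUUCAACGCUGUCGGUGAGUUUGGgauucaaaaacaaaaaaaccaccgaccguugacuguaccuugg
Mir181b-1: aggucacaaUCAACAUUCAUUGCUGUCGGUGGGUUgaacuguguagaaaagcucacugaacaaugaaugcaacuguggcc
Mir181b-2: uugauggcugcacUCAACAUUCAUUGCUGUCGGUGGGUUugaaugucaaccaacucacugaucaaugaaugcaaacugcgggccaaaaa
The shared stretch is 28 bases long in the Mir181a pair, with 1 base before the arm and 4 after it, and 26 bases long in the Mir181b pair, with 2 bases before the arm and 0 after it. A read that stays inside the stretch fits both copies. A read that extends past it, for example by 1 base at the 3′ end of miR-181b-5p, fits 1 copy.

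The 3p arms differ between copies, and they are printed with the differing bases in capitals because exact reads from them could be given to 1 gene.
miR-181a-1-3p: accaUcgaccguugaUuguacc
miR-181a-2-3p: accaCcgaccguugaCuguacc
miR-181b-1-3p: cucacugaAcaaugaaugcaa
miR-181b-2-3p: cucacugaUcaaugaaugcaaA
The Mir181a copies differ by U5C and U16C from the chromosome 1 arm to the chromosome 2 arm. The Mir181b copies differ by A9U and by 1 base in length. By seed, the 3p arms of Mir181a-1 and Mir181c share CCAUCGA and those of Mir181b-1 and Mir181b-2 share UCACUGA, while Mir181a-2 (CCACCGA) and Mir181d (CCACCGG) each have a 3p seed of their own among the RefSeq mature miRNAs. The 3p arm of Mir181c differs from that of Mir181a-1 by U16G and U19G. The counts of Mir181a-1, Mir181a-2, Mir181b-1 and Mir181b-2 thus leave out exact reads of their shared 5p arms, whereas Mir181c and Mir181d could be counted from both arms. Levels of these 4 genes are uncertain for that reason, and their order beside Mir181c and Mir181d holds only for reads mapped to 1 place. How the deposited counts treated reads with a mismatch is not given in the sources used here.

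**Figure D1:**
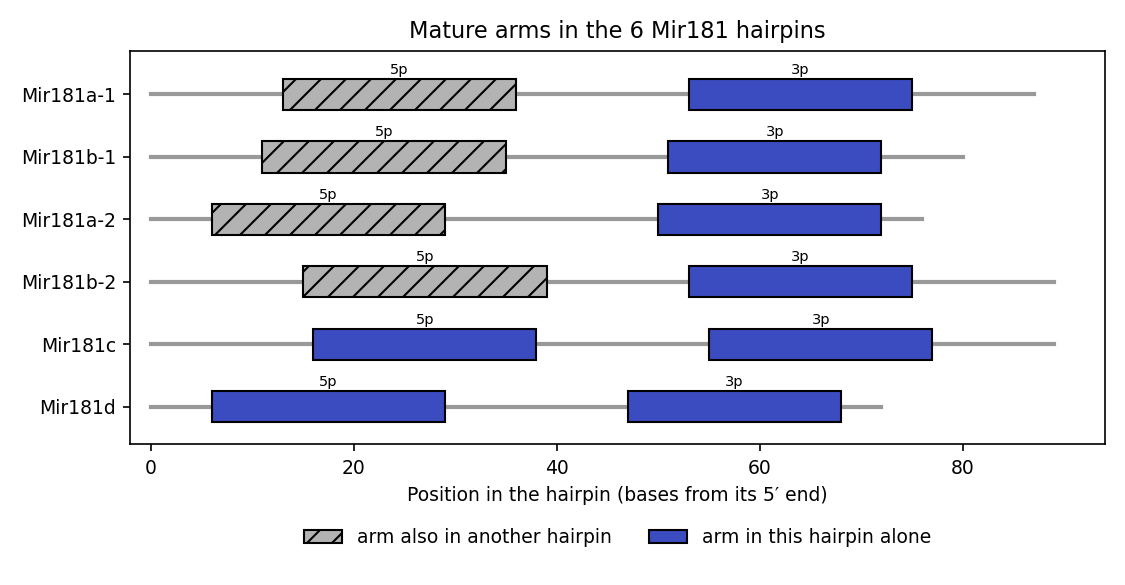
Position of the 5p and 3p arms in each Mir181 hairpin, in bases from the 5′ end of the hairpin. Hatched grey arms occur in another hairpin of GENCODE M21, and blue arms occur in that hairpin alone: the 5p arms of the 4 genes on chromosomes 1 and 2 are hatched, and all arms of Mir181c and Mir181d are blue.

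The libraries held 6408008 reads on miRNA genes in replicate 2 and 2978463 in replicate 1, or 45.5% and 51.0% of all their reads. A further 29.7% in replicate 2 and 30.6% in replicate 1 mapped to several places. Among lists of tissue-type miRNAs, the summed level was 140246 ± 16339 CPM (reads scaled to the library size, with TMM factors) for 7 epithelial genes, 17327 ± 1037 CPM for 4 mesenchymal genes and 14886 ± 645 CPM for 2 cartilage genes (SD, n = 2). Of the mesenchymal sum, Mir214 alone made up 15971 ± 1213 CPM (SD, n = 2). All RefSeq arms of the mesenchymal Mir199a-1, Mir199a-2 and Mir199b also occur in another hairpin, so their exact reads were not counted. No arm of the epithelial and cartilage genes does, so these sums are not on equal terms. For the cell types in which miR-181 is best known, the endothelial Mir126a stood at 26288 ± 3061 CPM, 7 striated muscle genes at 7084 ± 1404 CPM, 4 leukocyte genes at 3199 ± 398 CPM and 8 neuronal genes at 547 ± 67.5 CPM (SD, n = 2). Single genes made up most of the muscle and leukocyte sums: Mir206 at 6877 ± 1377 CPM and Mir342 at 2605 ± 356.5 CPM (SD, n = 2). In these bulk pools, fewer cells of a type and less RNA per cell cannot be told apart, and the cells in which the Mir181 genes are expressed were not measured.

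Together the Mir181 genes had 64130 reads in replicate 2 and 27601 reads in replicate 1. That is 1.001% of all miRNA counts in replicate 2 (95% exact Clopper-Pearson interval 0.993 to 1.009) and 0.927% in replicate 1 (0.916 to 0.938). The summed level was 9639 ± 590 CPM (SD, n = 2). The set-aside reads with several positions numbered 65.3 times the Mir181 reads in replicate 2 and 64.8 times in replicate 1, and the tables do not divide them by gene, so the part that belongs to miR-181a-5p and miR-181b-5p is not known.

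The chromosome 8 cluster held most of the assigned Mir181 reads. It consists of Mir181c at chr8:84178873-84178961 (ENSMUSG00000065483) and Mir181d at chr8:84178716-84178787 (ENSMUSG00000076338), which lie 85 bases apart. Both sit in an intron of Nanos3, which encodes an RNA-binding protein of germ cells, on the same strand. The cluster took 72.2% of Mir181 reads in replicate 2 (95% exact interval 71.9 to 72.6) and 75.2% in replicate 1 (74.7 to 75.7).

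Mir181c was the highest member. It had 29069 reads (4558 CPM) in replicate 2 and 12786 reads (4272 CPM) in replicate 1, which placed it at rank 48 and rank 53 of the 333 detected genes. Mir181d had 17241 reads (2704 CPM) in replicate 2 and 7977 reads (2665 CPM) in replicate 1, at rank 65 and rank 64. The means were 4415 ± 202 CPM for Mir181c and 2684 ± 27.1 CPM for Mir181d (SD, n = 2), and the libraries of the 2 genes did not overlap. Mir181c exceeded Mir181d 1.69-fold in replicate 2 (95% interval 1.65 to 1.72) and 1.60-fold in replicate 1 (1.56 to 1.65). These intervals stayed apart by less than the last printed digit. Neither gene shares an exact arm with another hairpin, but reads with a mismatch between miR-181d-5p and the near-identical miR-181b-5p could change the level of Mir181d and this ratio.

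On chromosome 1 nearly all assigned reads belonged to 1 of the 2 genes. Mir181a-1 (chr1:137966455-137966541, ENSMUSG00000065565) and Mir181b-1 (chr1:137966639-137966718, ENSMUSG00000065458) lie 97 bases apart on the plus strand, in an intron of the noncoding gene Gm4258. The whole Mir181b-1 hairpin and the last 11 bases of Mir181a-1 also overlap an annotated exon of the long noncoding RNA A430106G13Rik on the same strand. Mir181a-1 had 12223 reads (1917 CPM) in replicate 2 and 4677 reads (1563 CPM) in replicate 1, whereas Mir181b-1 had 90 reads (14.1 CPM) and 32 reads (10.7 CPM).

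Mir181a-1 averaged 1740 ± 250 CPM and Mir181b-1 averaged 12.4 ± 2.42 CPM (SD, n = 2), the third and the lowest level of the family. Their read ratio was 136-fold in replicate 2 (95% interval 110 to 169) and 146-fold in replicate 1 (103 to 214), so the intervals of the libraries overlapped. The cluster held 19.2% of Mir181 reads in replicate 2 (18.9 to 19.5) and 17.1% in replicate 1 (16.6 to 17.5).

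On chromosome 2 the order within the cluster was the opposite one, with the b gene above the a gene. Mir181a-2 (chr2:38852735-38852810, ENSMUSG00000065423) and Mir181b-2 (chr2:38853830-38853918, ENSMUSG00000065578) lie 1019 bases apart on the plus strand. They are opposite an intron of Nr6a1, which encodes an orphan nuclear receptor and is read from the minus strand, and overlap no other annotated gene on their own strand. Mir181b-2 also lies opposite an exon of the unclassified transcript Gm44144. Mir181b-2 had 4434 reads (695 CPM) in replicate 2 and 1577 reads (527 CPM) in replicate 1, and averaged 611 ± 119 CPM (SD, n = 2). Mir181a-2 had 1073 reads (168 CPM) in replicate 2 and 552 reads (184 CPM) in replicate 1, and averaged 176 ± 11.4 CPM (SD, n = 2).

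The ratio of Mir181b-2 over Mir181a-2 was 4.13-fold in replicate 2 (95% interval 3.86 to 4.42) and 2.86-fold in replicate 1 (2.59 to 3.15). Of the 3 within-cluster ratios it moved most between the libraries, and its intervals did not overlap. The cluster held 8.59% of Mir181 reads in replicate 2 (8.37 to 8.81) and 7.71% in replicate 1 (7.40 to 8.04).

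Across the family the order by mean level was Mir181c, Mir181d, Mir181a-1, Mir181b-2, Mir181a-2 and Mir181b-1. Each library of a gene lay above both libraries of the next gene in this order, so no neighbours in it overlapped. By the means, the smallest step between neighbours was from Mir181d to Mir181a-1 at 1.54-fold, with 1.41-fold for replicate 2 and 1.71-fold for replicate 1. In replicate 1 the step from Mir181c to Mir181d, at 1.60-fold, was smaller. The largest was from Mir181a-2 to Mir181b-1, at 11.9-fold and 17.2-fold.

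**Figure D2:**
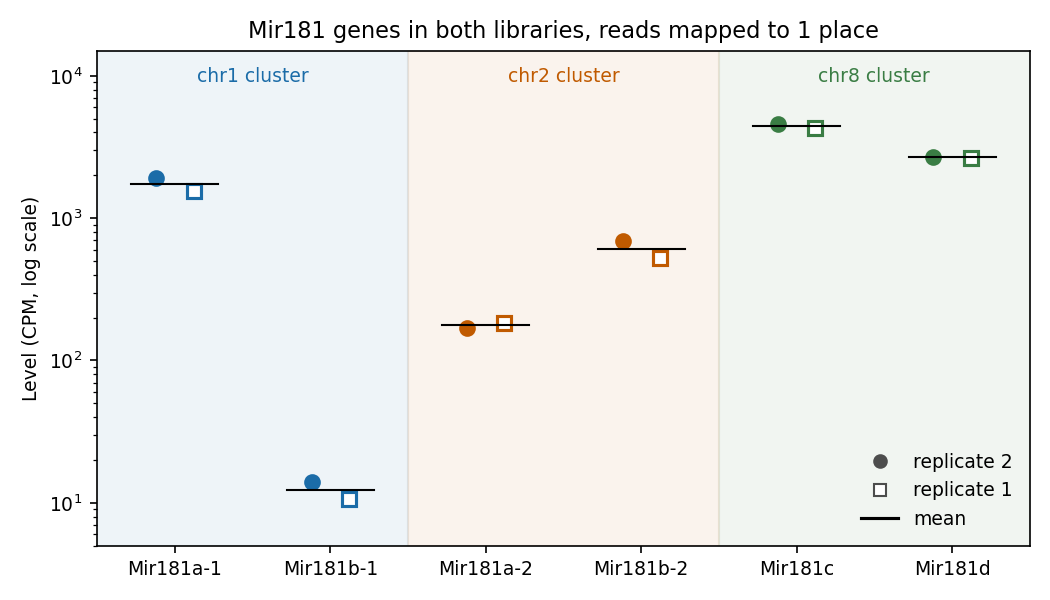
Level of each Mir181 gene in CPM on a log scale, grouped by cluster, from reads mapped to 1 place, with circles for replicate 2, squares for replicate 1 and a line for the mean. Mir181c and Mir181d lie highest, Mir181b-1 lies near 10 CPM, and the a gene lies above the b gene on chromosome 1 but below it on chromosome 2.

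**Figure D3:**
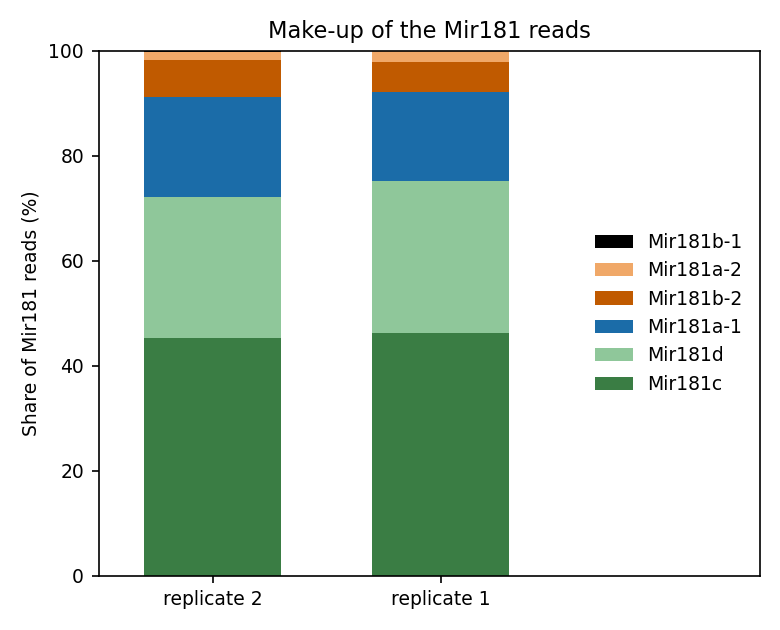
Share of the Mir181 reads (%) held by each gene in replicate 2 and replicate 1. The 2 genes of chromosome 8, in green, make up 72.2% and 75.2% of the column, and Mir181b-1 is too small to be seen.

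Copies of a mature miRNA were set side by side, since exact reads of the shared 5p arm are missing from the counts of both. Longer reads of that arm may be counted, and their number may differ by copy. Mir181a-1 exceeded Mir181a-2 by 11.4-fold in replicate 2 (95% interval 10.7 to 12.1) and by 8.47-fold in replicate 1 (7.76 to 9.27). Mir181b-2 exceeded Mir181b-1 by 49.3-fold in replicate 2 (40.0 to 61.4) and also by 49.3-fold in replicate 1 (34.8 to 72.3). The higher copy thus lay on chromosome 1 for the a arm and on chromosome 2 for the b arm. These folds compare reads that reach outside the shared stretch, whichever arm they come from, and how miR-181a-5p and miR-181b-5p divide between their loci was not measured.

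To place these folds, 19 other miRNAs with at least 2 gene copies counted under their listed names were examined. In 11 of them the highest and the lowest copy both had at least 10 reads in each library. The median fold of highest over lowest copy was 2.22 in replicate 2 and 2.14 in replicate 1. None of the 11 exceeded the Mir181b fold in replicate 2. In replicate 2, 1 of the 11 exceeded the Mir181a fold, namely Mir199a at 12.4-fold, with 13.7-fold in replicate 1. Mir199a is a mesenchymal miRNA named here after its values were seen. A further pair, Mir92-1 and Mir92-2, had been listed under other names and was not among the 19. With means of 2393 CPM and 71.0 CPM, its copies lay further apart than those of Mir181a. The families are not all alike, however, and both arms of the Mir199a copies occur in another hairpin. In 8 of the 11 the compared copies each share 1 of 2 arms, as the Mir181 copies do, a restriction chosen after seeing the data. In these 8 the median fold was 2.71 in replicate 2 and 2.16 in replicate 1. The highest was 4.51 in replicate 2 and 5.77 in replicate 1. The Mir92 pair is outside these 8 because of its names, although Mir92-1 also shares 1 of its 2 arms. Its copies lay further apart than those of Mir181a, as given above. The rule of 10 reads left out Mir103, Mir194, Mir196a and Mir29b, whose copies also share 1 of 2 arms. In replicate 2 their higher and lower copies had 218 and 13, 258 and 18, 56 and 2, and 18 and 6 reads. In replicate 1 they had 82 and 7, 136 and 8, 8 and 0, and 3 and 0. Mir103 and Mir194 thus lay further apart than the Mir181a copies in both libraries, and Mir29b lay closer in replicate 2. The highest folds given hold for the 8 families alone. Of 50 genes on this list of copied miRNAs, 42 were found under their listed names. Of these 42, 27 were detected and 8 had at most 3 reads in each library. Some of the rest were counted under other names, such as Mir92-1, Mir92-2 and Mir7-1 (39.4 CPM). The highest of the 42 were Mirlet7f-2 at 2849 ± 390 CPM and Mir16-1 at 1420 ± 90.4 CPM (SD, n = 2). Next came Mir125b-1 at 1117 ± 96.1 CPM and Mir125b-2 at 534 ± 0.482 CPM (SD, n = 2). By its mean, Mir92-1 would have stood between Mirlet7f-2 and Mir16-1.

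The 4 genes on chromosomes 1 and 2 ranged widely for genes with 1 shared arm. Among counted genes with 2 RefSeq arms of which 1 also occurs in another hairpin, 28 detected genes outside the family had a median level of 45.7 CPM. Detected genes with 2 arms of their own numbered 215 and had a median of 248 CPM. Mir181a-1 was exceeded by 2 of the 28, Mir181b-2 by 4, Mir181a-2 by 9 and Mir181b-1 by 23. Of the windows of 22 bases that tile each hairpin, between 87.3% (Mir181a-2) and 92.6% (Mir181b-2) occur in no other hairpin for these 4 genes, against 100% for Mir181c and Mir181d.

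The within-cluster ratios were then set beside 104 other pairs of neighbouring detected miRNA genes on the same strand, at most 10000 bases apart. Neighbours often differed: the median size of the log2 read ratio in these pairs was 3.02, with quartiles of 1.31 and 4.98. The pair of Mir181a-1 and Mir181b-1 had a mean log2 ratio of 7.14 ± 0.07 (SD, n = 2), and 5 of the 104 pairs (4.81%) had a larger one. Exact reads of the shared 5p arms are missing from both of these Mir181 genes. Pairs with Mir19b-1, Mirlet7c-1 and Mir30c-1, which also share 1 of 2 arms, were among those 5. The pairs were not matched for shared arms, and the part of this loss in the ratio was not tested. The pair of Mir181b-2 and Mir181a-2 had 1.78 ± 0.38, with 69.2% of the other pairs larger, and the pair of Mir181c and Mir181d had 0.72 ± 0.05, with 86.5% larger. The difference of this log2 ratio between the libraries was 0.53 in size on chromosome 2, 0.11 on chromosome 1 and 0.07 on chromosome 8, against a median of 0.25 in the other pairs.

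**Figure D4:**
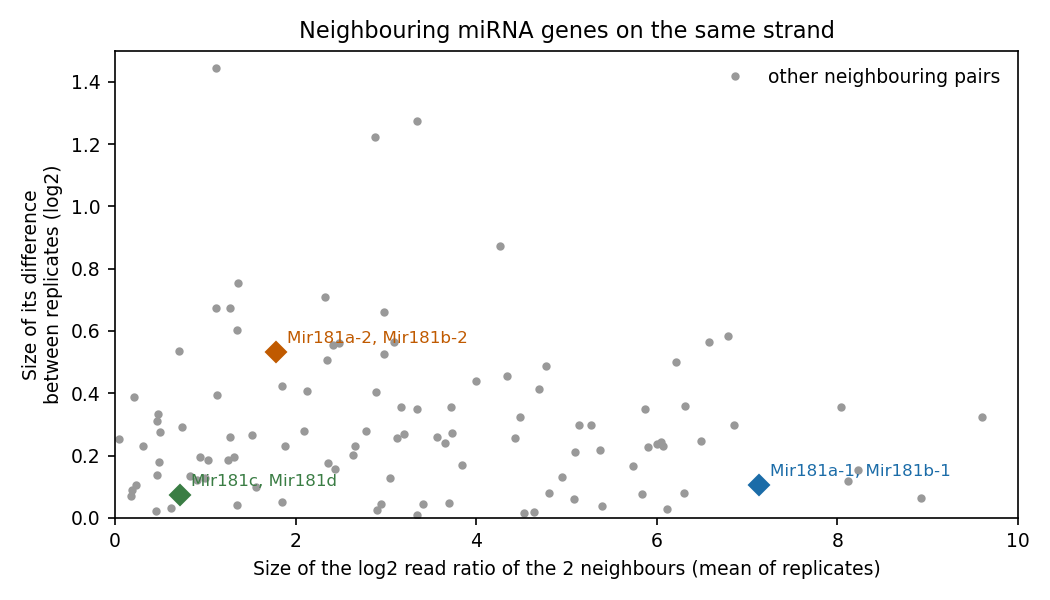
Size of the log2 read ratio of 2 neighbouring miRNA genes (horizontal, mean of the replicates) and size of its difference between replicates (vertical), for the Mir181 pairs (diamonds) and 104 other pairs (dots). The pair of Mir181a-1 and Mir181b-1 lies far to the right at 7.14, and the pair on chromosome 2 lies above the other Mir181 pairs at 0.53.

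Between the libraries no member differed by over 1.5-fold, against 11.4% of all 333 tested genes. The exact binomial test of the reads in replicate 2 against the ratio of library sizes, adjusted over all 333 genes by the Benjamini-Hochberg method, called 3 members. All of these 3 had more in replicate 2 and 0 had more in replicate 1, and no call was made for the other 3. Over all genes the same test called 53.5%, with 25.8% higher in replicate 2 and 27.6% higher in replicate 1, so the share of members called in either direction was near the background. With 0 residual degrees of freedom, such a call is about these libraries and takes in no error beyond counting. The median log2 ratio of replicate 2 over replicate 1 was 0.19 over the 6 members and −0.01 over all tested genes, and its median size was 0.21 in both.

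The called members were Mir181b-2, Mir181a-1 and Mir181c. The log2 ratio of Mir181b-2 was 0.40 (95% interval 0.32 to 0.48, exact binomial adjusted p = 2.72e-21). That of Mir181a-1 was 0.29 (0.25 to 0.34, exact binomial adjusted p = 1.27e-32). That of Mir181c was 0.09 (0.06 to 0.12, exact binomial adjusted p = 3.15e-09), the smallest of the called ratios and the one with the most reads.

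Of the members that were not called, Mir181b-1 had a log2 ratio as large as that of Mir181b-2, at 0.40, but with 90 and 32 reads its interval ran from −0.20 to 1.03 (exact binomial adjusted p = 0.311). Mir181a-2 had a ratio of −0.13 (−0.28 to 0.02, exact binomial adjusted p = 0.143) and was the only member with a ratio below 0. Mir181d had a ratio of 0.02 (−0.02 to 0.06, exact binomial adjusted p = 0.411), and with DESeq2 size factors it was called higher in replicate 2 at 0.05 (exact binomial adjusted p = 0.0403). By cluster, the log2 ratio was 0.30 (0.25 to 0.34) on chromosome 1, 0.28 (0.21 to 0.35) on chromosome 2 and 0.07 (0.04 to 0.09) on chromosome 8. The intervals of chromosomes 1 and 2, which hold counting error alone, did not overlap that of chromosome 8.

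**Figure D5:**
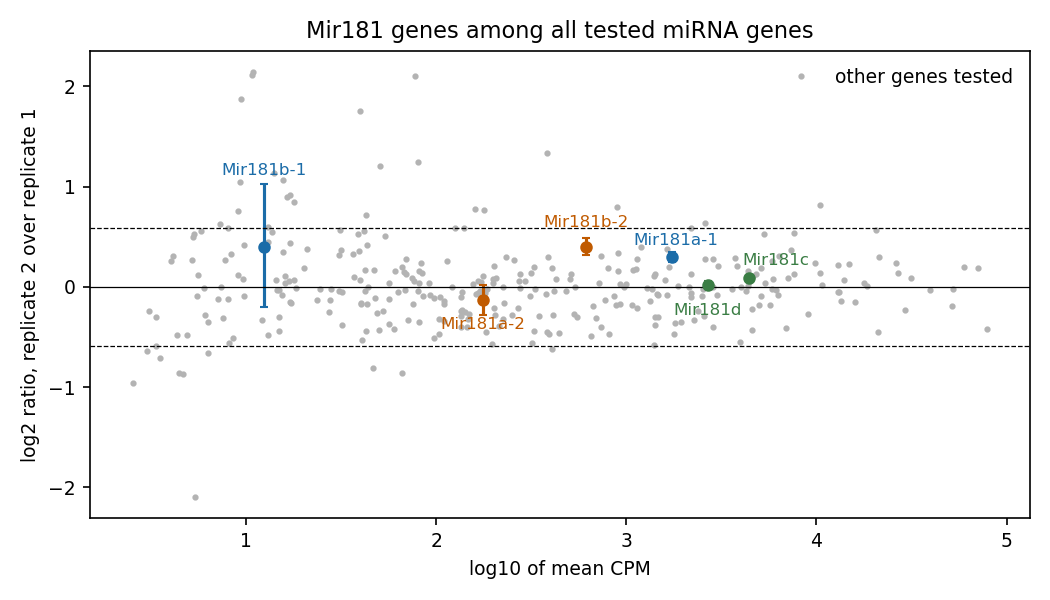
The log2 ratio of replicate 2 over replicate 1 (vertical) against the log10 of the mean CPM (horizontal) for the Mir181 genes, coloured by cluster with 95% counting intervals, and for the other tested genes (grey). Dashed lines mark 1.5-fold: all Mir181 points lie between them, and the interval of Mir181b-1 reaches past the upper one.

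Tissue-type levels moved between the libraries as well. The epithelial sum was 128693 CPM in replicate 2 and 151799 CPM in replicate 1, although its genes were divided: 4 of the 7 were called higher in replicate 2 and 3 higher in replicate 1. The median of their log2 ratios was 0.11. The endothelial Mir126a had 28452 CPM in replicate 2 and 24124 CPM in replicate 1. The leukocyte sum was 3480 CPM in replicate 2 and 2918 CPM in replicate 1, the striated muscle sum 6091 CPM in replicate 2 and 8077 CPM in replicate 1, and the neuronal sum 499 CPM in replicate 2 and 594 CPM in replicate 1. The leukocyte list held 6 genes, but Mir142 and Mir146a were not found under those names. Genes named Mir142b (mean 663 CPM, log2 ratio −0.19) and Mir146 (mean 97.4 CPM, log2 ratio −0.11) are outside the sum. Both were lower in replicate 2, against the shift of the sum. Of the leukocyte genes 0 of 4 were at 3 reads or fewer in each library, of the muscle genes 3 of 7, and of the neuronal genes 4 of 8. All of these muscle and neuronal genes are on the list of copied miRNAs. Reads that mapped to several places were given to no gene, so their low counts need not mean low levels. The part of these cell types in the Mir181 ratios was not tested.

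The strand columns placed all but 1 of the Mir181 reads on the strand of the gene. The exception was 1 read opposite Mir181a-2 in replicate 2. The other counted genes within 50000 bases of a member all lay near the chromosome 8 cluster, on the plus strand opposite to it. They were Gm25110, with no read in either library (3 reads is the limit that a count of 0 allows), and the cluster of Mir23a, Mir27a and Mir24-2. Mir23a, 29645 bases from Mir181c by start, stood at 29313 ± 3264 CPM, Mir27a at 440 ± 98.3 CPM and Mir24-2 at 375 ± 12.9 CPM (SD, n = 2). Their log2 ratios of replicate 2 over replicate 1 were −0.23, −0.46 and −0.07, against 0.09 and 0.02 for Mir181c and Mir181d.

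By level in both libraries, the gene outside the family most like each member was found from the Euclidean distance in log2 CPM over the 2 libraries. Mir20a was nearest to Mir181c, at a distance of 0.0291 (4488 CPM in replicate 2 and 4328 CPM in replicate 1). Mir15a was nearest to Mir181d at 0.113, Mir139 to Mir181a-1 at 0.0967, Mir669c to Mir181a-2 at 0.0695 and Mir702 to Mir181b-1 at 0.103. Mir181b-2 had no such close match: its nearest gene, Mir125b-2, lay at 0.381, with 534 CPM in replicate 2 and 533 CPM in replicate 1. With 2 libraries this is a likeness of level only.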

How the data were processed

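MicroRNA sequencing covered 2 pools, which form 1 group. Per the deposited file list, the values are unnormalized read counts on mm10 with the GENCODE M4 annotation, 1 per miRNA gene and strand. The aligner and the counter have no name given in the sources used here. Reads on either strand were used. Lines naming no gene (unmapped, several places, no feature, ambiguous) were left out of library sizes and made up 54.5% of the reads in replicate 2 and 49.0% in replicate 1.

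Names, positions and hairpins came from GENCODE M21 (GRCm38), which named 1894 of 1973 genes. Mature arms came from RefSeq for all 6 genes, hairpins for the 4 printed. Counts were scaled with TMM in edgeR 4.0.16 (R 4.3.3) to CPM. Genes with at least 10 reads in each library were tested by a two-sided exact binomial test with Benjamini-Hochberg adjustment at 0.05. All 95% intervals and limits cover counting error only, since no molecular identifiers are named. The test was checked on simulated counts that held counting error alone, so the check does not cover variation between pools. The members and lists were chosen with earlier results of these data known. Genes outside the family were named by a rule: the nearest gene in level, counted genes within 50000 bases, and the 4 highest copied miRNAs found under their listed names. Mir126a was named as the only gene of its marker list, and Mir214, Mir206 and Mir342 as the highest of theirs. Mir199a, Mir92-1, Mir92-2, Mir7-1, Mir103, Mir194, Mir196a and Mir29b were named after their values were seen. So were Mir214, Mir199b, Mir142b, Mir146, Mir19b-1, Mirlet7c-1 and Mir30c-1. Alternatives were size factors from DESeq2 1.42.0, total counts, the most abundant gene left out, other filters, the gene's strand only, summed copies and each replicate left out. Python 3.11.15, pandas 2.3.3, scipy 1.17.1 and matplotlib 3.10.9 were used.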

Additional observations from a re-analysis of the deposited data

How the results depend on the processing

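No Mir181 ratio changed direction under any alternative tried. Other scalings shift the log2 ratios of all genes alike, by 0.024 with DESeq2 size factors and by −0.014 with total counts. Ratios larger in size than these shifts could therefore not have changed direction by scaling. With DESeq2 size factors the log2 ratio of the Mir181 sum was 0.15, against 0.12 with TMM, outside its counting interval. The call of Mir181d turned on scaling. Without the most abundant gene in the totals, the Mir181 sum stood at 10468 CPM against 9639 CPM. Leaving out 1 replicate gave 9222 to 10056 CPM for the sum and 72.2% to 75.2% for the chromosome 8 share. The count of genes called over the whole table lay between 165 and 186, with 178 as reported. With copies summed, the level was 1916 CPM for the Mir181a genes and 624 CPM for the Mir181b genes. Of 126 alternative values, 118 stayed within their spread or kept their call. Many of these could not have come out otherwise. With 2 libraries, either replicate alone always lies within the SD of their mean. Read filters leave each ratio as it is, so there only the call could change. The count of 118 is therefore no measure of stability. No paired analysis was possible because there is only 1 group. Depth limits Mir181b-1 most, at 90 and 32 reads. The set-aside reads of shared arms limit all levels on chromosomes 1 and 2.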
